A study of Mus musculus with 14 samples.

Results

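A set of 9 genes of the natriuretic peptides and the fetal gene programme of the heart was followed in 14 mouse hearts: Nppa, Nppb, Ankrd1, Xirp2, Myh6, Myh7, Acta1, Acta2 and Actc1. They were taken by name from both tables of estimated counts. All 9 members were found among the 42396 rows that each table lists, and all 9 passed the filter on low values in both experiments. Nppb also has a copy row (Nppb_1) that shares its reads, so it is given alone and summed with that copy.

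Nppa and Nppb encode the natriuretic peptides ANP and BNP, hormones that a stretched or overloaded heart releases to promote salt excretion and vessel relaxation. In the ventricle both genes are active before birth, fall silent after birth and return in heart failure, together with β-myosin heavy chain (Myh7) and skeletal α-actin (Acta1), while α-myosin heavy chain (Myh6) declines. Ankrd1 and Xirp2 encode proteins of the sarcomere and intercalated disc that respond to strain.

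All hearts came from female FS6KD mice, which carry a gene-trap knockdown of Ndufs6, a complex I subunit, on a mixed C57BL/6J and 129/Ola background. In the knockout experiment, 4 hearts labelled Atf3+/+FS6KD and 4 labelled Atf3-/-FS6KD were collected at 12 weeks, the latter from a line made by CRISPR-Cas9 deletion of Atf3 in fertilized FS6KD eggs, a deletion not restricted to any cell type. In the AAV experiment, 3 hearts were labelled MyoAAV2-shCtrl and 3 MyoAAV2-shAtf3, named for muscle-directed viral vectors given to newborns that carry a control short hairpin RNA or a hairpin against Atf3. Their age at collection is not clear from the sources used here. The comparisons address how loss of Atf3, a stress-induced transcription factor, changes a heart with a complex I defect.

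The knockout libraries held 33914931 to 134920825 estimated counts each, replicates 3 and 4 of both genotypes being the deeper ones, and the AAV libraries 30085432 to 40534913. Atf3 itself was not lower in either targeted group. The hearts labelled Atf3+/+FS6KD had 25.8, 6.9, 6.91 and 6.36 CPM of Atf3 (TMM-normalised counts scaled to a common library size), and those labelled Atf3-/-FS6KD had 25.6, 37.6, 22.7 and 14.3 CPM (log2 fold change 1.14 ± 0.49 SE, edgeR adjusted p = 0.480). This count covers the whole gene, exons outside the deletion included, and does not test the deletion. Among the AAV hearts it was 10.1, 13.3 and 14.1 CPM in the hearts labelled shCtrl and 21.2, 12.1 and 16.5 CPM in those labelled shAtf3 (log2 fold change 0.41 ± 0.19 SE, edgeR adjusted p = 0.420). Column names of that table also give the groups in reverse of the labels, so directions in both experiments are conditional on the labels.

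The tissue label was checked against marker genes. All 7 cardiomyocyte markers were abundant, with summed levels of 29410 to 40050 CPM over the hearts. Of 5 atrial markers, Sln, Myl7, Bmp10 and Mybphl were below 1 CPM in all 14 hearts, and the summed level of the list was 2.02 to 3.52 CPM. The levels of Nppa given here were thus measured in tissue with almost no atrial marker RNA. Of 8 skeletal muscle markers, at least 7 were below 1 CPM in every heart of each group, and their summed level was 1.53 to 3.42 CPM.

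The library labelled Atf3-/-FS6KD replicate 3 stood apart from the other 3 of its group in the rows around the natriuretic peptide genes. Nppa and Nppb lie next to each other on chromosome 4 (GRCm38, 148000722 to 148002074 and 147985786 to 147987205). Nppb_1 held 44.6%, 44.8% and 43.2% of the Nppb plus Nppb_1 count in Atf3-/-FS6KD replicates 1, 2 and 4, and 31.6% in replicate 3. The other 10 hearts lay between 31.2% and 32.3%. Nppa_1, looked at after the values were seen, held 50.8%, 50.7% and 50.3% in those same 3 hearts and 46.3% to 47.5% in the other 11. Within 300000 bases of Nppa, 15 genes had a copy row and at least 100 counts in every heart for gene and copy together. In 13 of these 15, Nppa and Nppb included, the same 3 hearts had a higher copy share than all 11 others, and Agtrap, Clcn6 and Mfn2 are examples. For Agtrap the range was 41.6% to 43.7% in the 3 hearts and 14.2% to 16.8% in the 11. Since sharing between gene and copy differed between hearts of 1 group, the summed values are the safer measure for Nppa and Nppb.

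**Figure D1:**
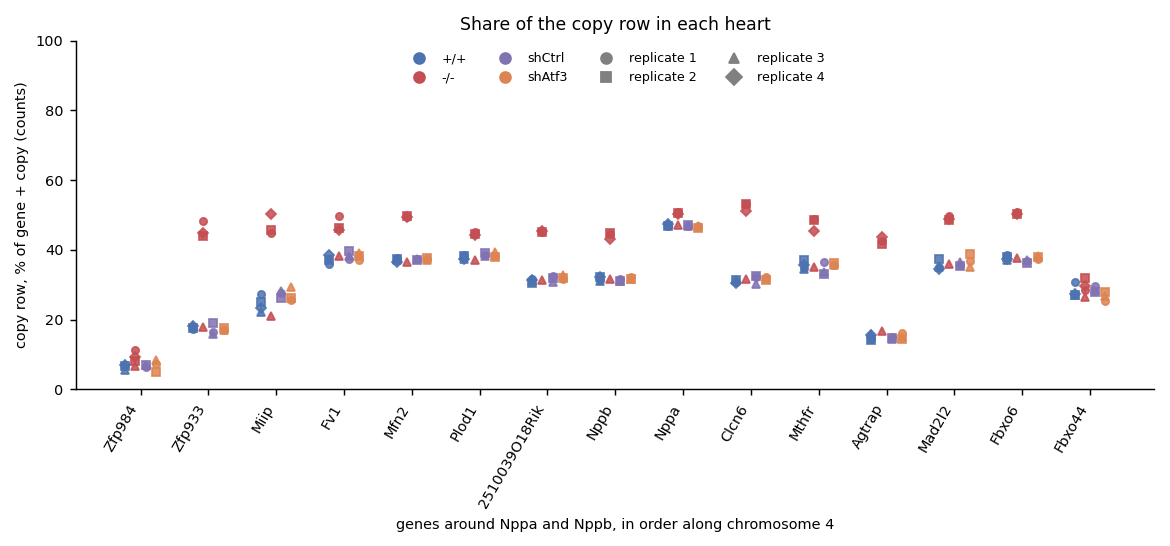
Share of the copy row in the summed count of gene and copy (y axis, percent) for 15 genes around Nppa and Nppb, in their order on chromosome 4 (x axis). Colour marks the group and shape the replicate. In 13 of the 15 genes Atf3-/-FS6KD replicates 1, 2 and 4 lie above the other 11 hearts, while Atf3-/-FS6KD replicate 3 lies among them.

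Upstream sequences are shown for Acta1 and Actc1, the members with the smallest p in the knockout experiment, for Nppa, which differed most in the AAV experiment, and for Myh7, the fetal myosin. They are the bases before the RefSeq transcription start in GRCm38.p6, written 5′ to 3′ on the gene's strand. The windows are chr8:123894776-123895025 (minus strand) for Acta1, chr2:114052888-114053125 (minus strand) for Actc1, chr4:148000472-148000721 (plus strand) for Nppa and chr14:54994627-54994876 (minus strand) for Myh7. Actc1 is given as 238 bases and ends 13 bases before the start, where annotated exon begins. Capitals mark matches to the motifs searched.
Acta1: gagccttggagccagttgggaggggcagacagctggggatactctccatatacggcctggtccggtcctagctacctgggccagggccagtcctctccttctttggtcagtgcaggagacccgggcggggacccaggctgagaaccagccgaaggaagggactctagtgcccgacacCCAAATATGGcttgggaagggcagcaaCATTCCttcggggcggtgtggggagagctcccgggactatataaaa
Actc1: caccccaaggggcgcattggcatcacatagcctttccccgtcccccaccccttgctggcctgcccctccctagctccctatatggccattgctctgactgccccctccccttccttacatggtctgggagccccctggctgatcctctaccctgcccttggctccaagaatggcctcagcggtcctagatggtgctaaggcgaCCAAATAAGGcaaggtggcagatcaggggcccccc
Nppa: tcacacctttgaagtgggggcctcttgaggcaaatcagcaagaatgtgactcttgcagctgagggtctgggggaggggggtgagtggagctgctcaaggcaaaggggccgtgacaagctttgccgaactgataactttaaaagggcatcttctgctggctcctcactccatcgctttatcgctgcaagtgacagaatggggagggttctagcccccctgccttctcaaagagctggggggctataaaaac
Myh7: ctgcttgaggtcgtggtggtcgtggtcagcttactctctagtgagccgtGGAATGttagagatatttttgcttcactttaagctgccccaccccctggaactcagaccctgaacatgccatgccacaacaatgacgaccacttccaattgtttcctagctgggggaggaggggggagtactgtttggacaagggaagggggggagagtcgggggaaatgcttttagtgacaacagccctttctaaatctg

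Motifs were searched on both strands in the 250 bases before 10 annotated starts of the 9 members, and in all 32851 promoters of the same RefSeq table. The CArG box, the site of serum response factor, was present upstream of Acta1 (bases 73 to 64 before the start) and Actc1 (bases 47 to 38), and in 1.47% of all promoters. CATTCC, the MCAT element of TEAD factors, was present upstream of 6 members, namely Nppb, Acta1, Myh6, Myh7, Acta2 and Ankrd1, and in 12.6% of all promoters. AGATAA, which zinc-finger factors of the GATA family recognise, was present upstream of Nppb and Ankrd1 and in 9.99% of all. TGACTCA, the AP-1 site, was present upstream of Xirp2 and in 4.46% of all, and TGACGTCA, the cyclic AMP response element that ATF proteins can bind, upstream of 0 members and in 1.55% of all. Myh7 has a pair of annotated starts, and only the one shown held a match. Some windows reach into the member's own annotated gene, which has a start further upstream. This covers all 250 bases for Myh6, 212 for Acta2, 114 for Nppb, 77 for the other Myh7 start and 2 for Xirp2. The matches of Myh6, Acta2 and Nppb lie in those bases, and that of Xirp2 does not. The Ankrd1 window lies wholly in annotated exons of protein-coding genes. The searched letters overlapped nowhere among the members.

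Levels were compared between genes as CPM per kilobase of GENCODE exons, the value that removes gene length. In the hearts labelled Atf3+/+FS6KD the cardiac α-actin Actc1 had 4225 ± 646 CPM per kilobase (SD, n = 4) and Myh6 3846 ± 575, and their ranges overlapped. Next came Acta1 at 1516 ± 694 and Ankrd1 at 1174 ± 328, which also overlapped. Nppa was at 696 ± 50.3 and Nppb at 459 ± 102, with Nppa above Nppb in all 4 hearts on their own rows. Myh7 stood at 254 ± 65.1, Xirp2 at 96.0 ± 18.2 and Acta2 at 93.2 ± 59.1 CPM per kilobase, and the last pair overlapped. This order held in the other groups, except that Ankrd1 (839 ± 331) came before Acta1 (699 ± 46.0) in the hearts labelled Atf3-/-FS6KD. These orders use the own rows of Nppa and Nppb. Summed with its copy, Nppa was at 1317 ± 95.8 CPM per kilobase in the hearts labelled Atf3+/+FS6KD and 1324 ± 654 in shCtrl, above the Ankrd1 mean in both. It was at 1245 ± 433 in those labelled Atf3-/-FS6KD, above the means of Ankrd1 and Acta1, and at 631 ± 87.9 in shAtf3, below Ankrd1. Its range overlapped that of Ankrd1 in all 4 groups. All members with the Nppa and Nppb copies took 3.35% to 4.46% of the estimated count of a heart.

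**Figure D2:**
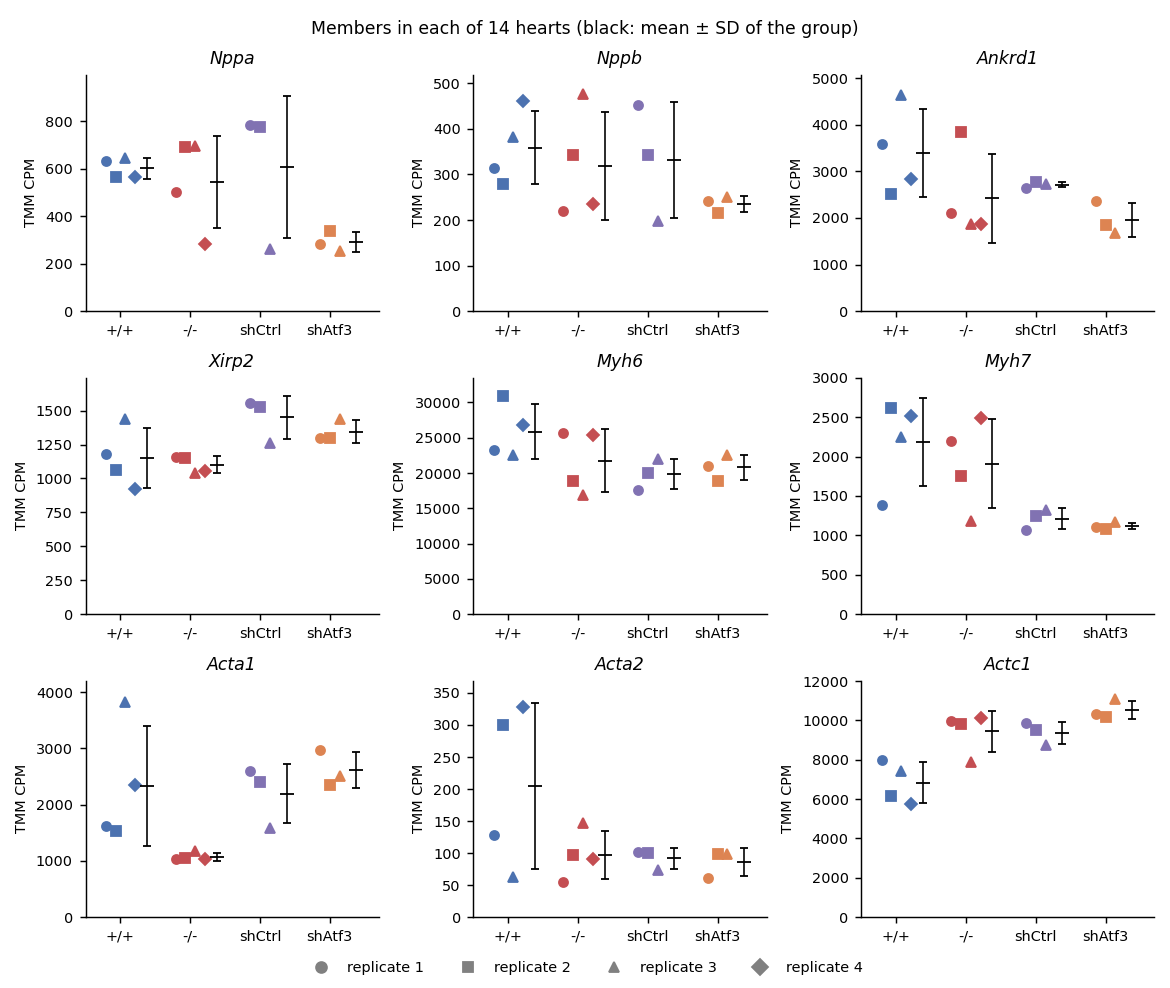
TMM-normalised CPM (y axis, from 0) of the 9 members in each heart, by group (x axis). Shape marks the replicate, and the black bar gives the mean ± SD of the group. For Acta1 all 4 Atf3-/-FS6KD hearts, between 1029 and 1179 CPM, lie below all 4 Atf3+/+FS6KD hearts, and for Nppa the shCtrl replicate 3 lies with the shAtf3 hearts.

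In the knockout experiment Acta1 and Actc1 had the smallest p of the members. Acta1, the skeletal α-actin, abundant in the fetal heart, had a lower mean in the hearts labelled Atf3-/-FS6KD, Actc1, the adult cardiac α-actin, had a higher one, and the peptides and myosins overlapped widely between genotypes. None of the 9 members passed the threshold (edgeR quasi-likelihood test, adjusted p below 0.05), and neither did any of the 15592 genes tested (0.0%). Without adjustment, 1575 genes (10.1%) had p below 0.05, Acta1 and Actc1 among them. The median log2 fold change of the members was -0.20, with 8 of 9 lower on their own rows and 7 of 9 once both peptides were summed with their copies, beside a median of 0.00054 over all genes, of which 49.8% were lower. Beside them, 7 of 7 cardiomyocyte markers were lower (median -0.15), and 5 of 5 fibroblast and 5 of 5 myofibroblast markers were higher (medians 0.25 and 0.63). In addition, 4 of 4 macrophage and 4 of 4 endothelial markers were higher (medians 0.25 and 0.05), and 4 of 4 erythrocyte markers were lower (median -0.20). Their part in the members' values was not tested. In bulk tissue, fewer cells of a type and less RNA per cell cannot be told apart. Nothing in the labels says which hearts share a litter, so p-values cover the spread between these hearts.

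Acta1 had 1613, 1526, 3828 and 2348 CPM in Atf3+/+FS6KD replicates 1 to 4. In Atf3-/-FS6KD replicates 1 to 4 it had 1041, 1045, 1179 and 1029 CPM. Every heart labelled Atf3-/-FS6KD was below every heart labelled Atf3+/+FS6KD, and the former spread by 1.15-fold and the latter by 2.51-fold from lowest to highest. Acta1 was the only member whose genotypes did not overlap, beside 2.63% of all genes tested that were lower and 3.08% that were higher without overlap. Its log2 fold change of -1.12 ± 0.26 (SE) had an edgeR adjusted p of 0.290. Within depth it was -0.59 among replicates 1 and 2 and -1.48 among the deeper replicates 3 and 4, and -1.17 without Atf3-/-FS6KD replicate 3.

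Actc1 had 7977, 6177, 7440 and 5750 CPM in the hearts labelled Atf3+/+FS6KD, and 9962, 9819, 7863 and 10121 CPM in those labelled Atf3-/-FS6KD. Only Atf3-/-FS6KD replicate 3 reached into the Atf3+/+FS6KD range. On the log2 scale the genotypes differed by 0.47 ± 0.12 (SE, adjusted p = 0.317 by edgeR), and by 0.54 without that replicate, 0.49 among replicates 1 and 2 and 0.45 among replicates 3 and 4. DESeq2 placed Actc1 past the threshold (adjusted p = 0.0287) and Acta1 just outside it (adjusted p = 0.0544), while it called 208 genes in all.

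Acta2, the smooth muscle α-actin, which heart muscle expresses early in development and myofibroblasts express in scars, had a coefficient of variation of 63.4% in Atf3+/+FS6KD and 38.6% in Atf3-/-FS6KD. It had 128, 301, 62.0 and 328 CPM in the hearts labelled Atf3+/+FS6KD and 55.2, 97.4, 147 and 90.4 CPM in those labelled Atf3-/-FS6KD. Atf3+/+FS6KD replicates 2 and 4 were high and replicate 3 was among the lowest hearts, so the genotypes overlapped. On the log2 scale they differed by -1.07 ± 0.49 (SE, adjusted p = 0.510 by edgeR), with -1.49 among replicates 1 and 2 and -0.72 among replicates 3 and 4. The 6 smooth muscle markers summed to 194 to 242 CPM in Atf3+/+FS6KD and 200 to 254 CPM in Atf3-/-FS6KD. Of these 6, 5 were higher and 1 lower in mean, with Tagln at 0.28 ± 0.14 and Mylk at 0.20 ± 0.11 (log2, SE, adjusted p = 0.544 and 0.557 by edgeR). The 5 myofibroblast markers summed to 569 to 706 CPM in Atf3+/+FS6KD and to 801 to 1269 CPM in Atf3-/-FS6KD, the opposite order to the Acta2 means. For these myofibroblast markers, 5 of 5 were higher, 4 of them without overlap, and 0 passed the threshold.

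Ankrd1, a titin-binding protein that enters the nucleus under strain, had 3586, 2503, 4632 and 2830 CPM in the hearts labelled Atf3+/+FS6KD. It had 2106, 3845, 1865 and 1867 CPM in those labelled Atf3-/-FS6KD. Of the latter, 3 were below the Atf3+/+FS6KD range, and replicate 2 was within it. The log2 fold change of -0.48 ± 0.27 (SE, edgeR adjusted p = 0.575) was -0.03 among replicates 1 and 2 and -1.0 among replicates 3 and 4. Leaving out Atf3-/-FS6KD replicate 2 gave -0.80, and leaving out Atf3+/+FS6KD replicate 3 gave -0.30. Xirp2, an actin-binding protein of the intercalated disc, had 921 to 1437 CPM in Atf3+/+FS6KD and 1039 to 1161 CPM in Atf3-/-FS6KD (log2 fold change -0.06 ± 0.12 SE, edgeR adjusted p = 0.889).

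Neither peptide separated the genotypes. Nppa summed with its copy had 1191, 1062, 1229 and 1076 CPM in the hearts labelled Atf3+/+FS6KD and 1021, 1398, 1318 and 571 CPM in those labelled Atf3-/-FS6KD. Atf3-/-FS6KD replicate 4 was the lowest and replicate 2 the highest of the 8. Genotypes differed by -0.08 ± 0.23 for the sum and -0.15 ± 0.24 for the Nppa row alone (log2, SE, adjusted p = 0.928 and 0.861 by edgeR), and both turned positive without Atf3-/-FS6KD replicate 4, at 0.13 and 0.06.

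Nppb alone had 313, 280, 381 and 460 CPM in the hearts labelled Atf3+/+FS6KD and 221, 343, 476 and 234 CPM in those labelled Atf3-/-FS6KD. Summed with its copy, it had 457, 413, 554 and 679 CPM against 398, 621, 696 and 412 CPM. Replicates 1 and 4 of Atf3-/-FS6KD were well below the lowest Atf3+/+FS6KD heart on the Nppb row alone, and close to it (398 and 412 against 413 CPM) once the copy was added. With the copy added, the log2 fold change moved from -0.17 ± 0.25 to 0.02 ± 0.21 (SE, edgeR adjusted p = 0.840 and 0.986). The Nppb row alone was at -0.44 without Atf3-/-FS6KD replicate 3, whose copy share stood apart from its group but not from the other groups. It was at -0.0293 without Atf3+/+FS6KD replicate 4, while the sum was at -0.14 and 0.16 in those fits.

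Both myosins had somewhat lower means in the hearts labelled Atf3-/-FS6KD, and their ranges overlapped. Myh6 had 23243, 30931, 22480 and 26808 CPM in Atf3+/+FS6KD and 25705, 18915, 16910 and 25435 CPM in Atf3-/-FS6KD (log2 fold change -0.25 ± 0.15 SE, edgeR adjusted p = 0.614). Myh7 had 1381, 2617, 2243 and 2512 CPM against 2204, 1758, 1187 and 2484 CPM (log2 fold change -0.20 ± 0.25 SE, edgeR adjusted p = 0.814). Atf3-/-FS6KD replicate 3 was the lowest of the 8 hearts for both, and without it the log2 fold changes were -0.15 and -0.03. Without Atf3+/+FS6KD replicate 1 Myh7 was at -0.36, and without Atf3-/-FS6KD replicate 1 Myh6 was at -0.34.

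In the AAV experiment the natriuretic peptides and Ankrd1 had lower means in the hearts labelled shAtf3, and Actc1 a slightly higher one. None of the 9 members passed the threshold, beside 82 of 15225 genes tested (0.539%). At an unadjusted p below 0.05, Nppa and Ankrd1 were lower and Actc1 was higher, beside 1933 such genes (12.7%). The median log2 fold change of the members was -0.11 with 6 of 9 lower, beside -0.0029 and 50.9% lower over all genes. Of the members, 2 did not overlap between the groups, Ankrd1 lower and Actc1 higher, where 9.94% of all genes were lower and 8.48% higher without overlap.

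Nppa had the widest difference. Summed with its copy it had 1476, 1468 and 492 CPM in the hearts labelled shCtrl and 534, 627 and 477 CPM in those labelled shAtf3. Replicates 1 and 2 of shCtrl were far above every heart labelled shAtf3, and replicate 3 of shCtrl was within the shAtf3 range. Groups differed by -1.07 ± 0.34 on the log2 scale for the sum (SE, adjusted p = 0.243 by edgeR) and by -1.06 ± 0.34 for the Nppa row alone (adjusted p = 0.247). Without shCtrl replicate 3 the Nppa row gave -1.42 and passed the threshold (edgeR adjusted p = 0.00057), and with no filter on low counts it passed too (adjusted p = 0.0238). Those fits called 285 and 304 genes in all, beside 82 in the fit reported. It was at -0.83 without shCtrl replicate 1 and -0.85 without shCtrl replicate 2 (adjusted p = 0.379 and 0.435), and at -1.05 in the fit of all 14 hearts (edgeR adjusted p = 0.423).

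Nppb followed the same hearts. Alone it had 452, 342 and 199 CPM in shCtrl and 241, 215 and 250 CPM in shAtf3, and with its copy 662, 498 and 289 CPM against 356, 314 and 367 CPM. Replicates 1 and 2 of shCtrl were high, and replicate 3 was the lowest of the 6 on either measure. Groups differed on the log2 scale by -0.49 ± 0.24 alone and -0.48 ± 0.24 with the copy (SE, adjusted p = 0.427 and 0.439 by edgeR). Without shCtrl replicate 3 it was -0.76 alone (adjusted p = 0.0127) and -0.75 with the copy (adjusted p = 0.0141), where 285 genes were called in all. Without shCtrl replicate 1 it was -0.20 and -0.19 (adjusted p = 0.705 and 0.730 by edgeR).

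The 5 myofibroblast markers summed to 1087 to 1679 CPM in shCtrl and 626 to 709 CPM in shAtf3. All 5 were lower without overlap, and 4 of them (Postn, Col1a1, Col3a1 and Fn1) passed the threshold. The AAV comparison called only 1 gene in the fit of all 14 hearts and 1 without shAtf3 replicate 2, so these 4 calls did not all hold there. Postn, an extracellular matrix protein of activated fibroblasts, was at 549, 418 and 319 CPM in shCtrl, and at 186 to 202 CPM in shAtf3. Replicate 3 of shCtrl, which had the lowest Nppb of the 6 hearts and Nppa within the shAtf3 range, was thus above every shAtf3 heart for all 5 markers. The part of these cells in the peptide values was not tested.

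Ankrd1 had 2652, 2776 and 2720 CPM in the hearts labelled shCtrl and 2372, 1844 and 1669 CPM in those labelled shAtf3. The shCtrl hearts lay close together, with shCtrl replicate 3 among them, and all shAtf3 hearts were lower. On the log2 scale the groups differed by -0.47 ± 0.11 (SE, adjusted p = 0.146 by edgeR), and it passed with DESeq2 (adjusted p = 0.0020) and with no filter on low counts (adjusted p = 0.0082). Those settings called 308 and 304 genes in all. In the fit of all 14 hearts, which the test of the difference used, it was -0.47 with an edgeR adjusted p of 0.674, and with 1 library left out it ran from -0.63 to -0.37 without passing. Xirp2 had 1557, 1528 and 1265 CPM in shCtrl and 1302, 1295 and 1441 CPM in shAtf3, with overlap (log2 fold change -0.11 ± 0.09 SE, edgeR adjusted p = 0.657), and stood at -0.20 without shCtrl replicate 3 and -0.0531 without shCtrl replicate 1.

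Actc1 had 9851, 9513 and 8764 CPM in the hearts labelled shCtrl and 10320, 10196 and 11084 CPM in those labelled shAtf3. All shAtf3 hearts were higher by a small margin (log2 fold change 0.17 ± 0.06 SE, edgeR adjusted p = 0.294). Acta1 had 2591, 2408 and 1592 CPM against 2976, 2351 and 2509 CPM, with overlap (log2 fold change 0.25 ± 0.16 SE, edgeR adjusted p = 0.570). Here too shCtrl replicate 3 was the lowest, and without it the value was 0.06. Acta2 ranged from 73.5 to 101 CPM in shCtrl and from 60.7 to 98.3 CPM in shAtf3 (log2 fold change -0.10 ± 0.19 SE, edgeR adjusted p = 0.877), and stood at 0.10 without shAtf3 replicate 1 and -0.23 without shCtrl replicate 3.

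Myh6 ranged from 17639 to 21935 CPM in shCtrl and from 18910 to 22510 CPM in shAtf3 (log2 fold change 0.07 ± 0.09 SE, edgeR adjusted p = 0.817), and without shCtrl replicate 1 it was at -0.0135. Myh7 ranged from 1062 to 1326 CPM and from 1086 to 1163 CPM (log2 fold change -0.12 ± 0.08 SE, edgeR adjusted p = 0.607). Myh7 was at -0.20 without shCtrl replicate 1 and -0.0463 without shCtrl replicate 3. Neither myosin separated the groups.

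**Figure D3:**
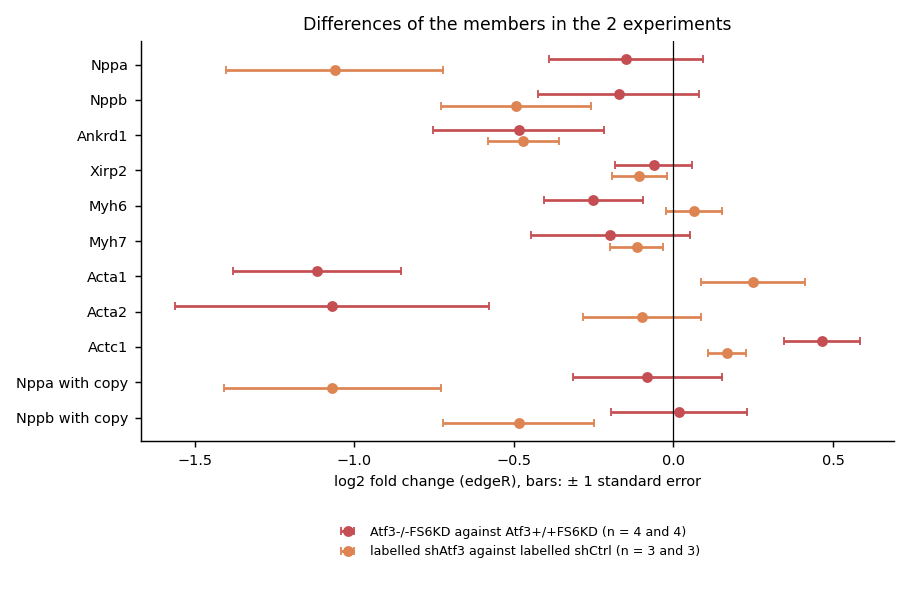
Log2 fold change (x axis, bars ± 1 SE) of each member, and of Nppa and Nppb summed with their copies, in the knockout experiment (4 against 4 hearts) and the AAV experiment (3 against 3). Acta1 lies at -1.12 in the knockout and 0.25 in the AAV experiment, Nppa at -0.15 and -1.06, and Ankrd1 at -0.48 and -0.47.

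Whether the effects of the labelled knockout and the labelled knockdown differed was tested directly as the knockout effect minus the knockdown effect, in a fit of all 14 hearts. None of the 9 members passed, beside 26 of 15708 genes (0.166%), and 2664 genes had an unadjusted edgeR p below 0.05. Acta1 stood at -1.37 ± 0.37 on the log2 scale (SE, edgeR adjusted p = 0.0968). Nppa stood at 0.90 ± 0.47 (adjusted p = 0.344), or 0.98 ± 0.46 summed with its copy (adjusted p = 0.300). Ankrd1, lower in mean in both labelled groups, stood at -0.02 ± 0.35 (edgeR adjusted p = 0.988). These values are conditional on the AAV labels, which the column names reverse. With the AAV groups exchanged, a fit chosen after seeing the data, Acta1 stood at -0.86 ± 0.37, Nppa at -1.20 ± 0.47, Ankrd1 at -0.95 ± 0.35 and Actc1 at 0.64 ± 0.16 (log2, SE), and 0 members and 0 of 15708 genes (0.0%) passed, beside 651 with an unadjusted edgeR p below 0.05.

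Shares between paired isoforms do not depend on how a library is scaled. Acta1 as a share of Acta1 plus Actc1, per exonic kilobase, was 17.6%, 20.6%, 35.1% and 30.1% in the hearts labelled Atf3+/+FS6KD and 9.92%, 10.1%, 13.6% and 9.68% in those labelled Atf3-/-FS6KD. The genotypes did not overlap, and the means were 25.9% ± 8.17 and 10.8% ± 1.88 (SD, n = 4 each). The summed level of both genes did overlap, at 7702 to 11270 CPM and 9041 to 11150 CPM. Among the AAV hearts the share was 21.7%, 21.04% and 16.1% in shCtrl and 23.3%, 19.6% and 19.2% in shAtf3, with overlap. No test was made on these shares, since they follow from the Acta1 and Actc1 values above.

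Myh7 as a share of Myh6 plus Myh7, the usual measure of the fetal myosin switch, stayed low in all 14 hearts. It was 4.43%, 6.20%, 7.23% and 6.82% in Atf3+/+FS6KD and 6.27%, 6.77%, 5.20% and 7.08% in Atf3-/-FS6KD, with overlap. It was 4.49%, 4.64% and 4.504% in shCtrl and 3.96%, 4.29% and 3.88% in shAtf3, a difference in means of -0.50 percentage points without overlap. Differences in level between the 2 experiments cannot be told apart from other differences between them, such as viral treatment. The share is therefore not compared across them.

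**Figure D4:**
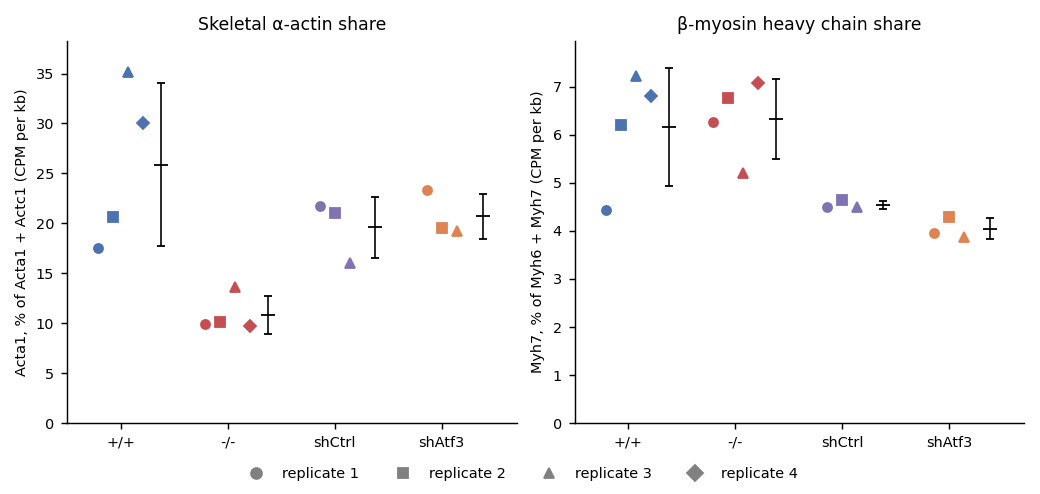
Acta1 as a percentage of Acta1 plus Actc1 (left) and Myh7 as a percentage of Myh6 plus Myh7 (right), both from CPM per exonic kilobase, in each heart by group. Shape marks the replicate and the black bar the mean ± SD. The Acta1 share of the 4 Atf3-/-FS6KD hearts, 9.68% to 13.6%, lies below all Atf3+/+FS6KD hearts.

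The myosin and peptide loci hold overlapping transcripts, and whether counting used strand is not given in the sources used here, so their reads cannot be told apart with certainty. Myh6 and Myh7 lie next to each other on chromosome 14 (GRCm38, 54941921 to 54968017 and 54970684 to 54994626). Mhrt, a long noncoding RNA antisense to Myh7, shares 484 exonic bases with it (5.62% of the Myh7 exons in GENCODE) and was counted at 28.4% to 36.2% of the Myh7 count in the 14 hearts. Gm31251 shares 523 bases with Myh7, and Gm13601 shares 168 with Xirp2, both antisense. Gm13054, antisense to Nppa, covers 532 bases or 61.5% of the Nppa exons in GENCODE and was not analysed here.

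For each member, the 3 genes whose level varied most like it within groups were found by Pearson's r over the 14 hearts, on log2 CPM less the group means, among 9728 genes. These r are descriptions, and all points share their library. Copy rows were left out of the candidates, and Nppa and Nppb were taken on their own rows. For Myh7 they were Mhrt (0.98), Gm31251 (0.98) and Foxred1 (0.97), and for Myh6 they were Gm52092 (0.97), Cmtm5 (0.91) and Dcaf11 (0.90). The leading pair in each overlaps the member's own locus. Xirp2 was most like Ahsa1 (0.97), Usp47 (0.93) and the overlapping Gm13601 (0.93). Acta1 was most like Bysl (0.98), Mob1b (0.95) and Gpd1 (0.94), Acta2 most like Tspan2 (0.90), Extl3 (0.89) and Ednra (0.88), and Actc1 most like Nras (0.89), Tra2a (0.88) and Spg11 (0.88). Ankrd1 was most like Trmt5 (0.94), Ccz1 (0.93) and Mafk (0.91). For the peptides, Nppa was most like Emc7 (0.91), Galnt1 (0.91) and Thbs4 (0.91), and Nppb most like Eif1ad (0.95), Timm8a1 (0.94) and Tuba1c (0.92). Within each experiment alone these r were 0.79 or more, except for Actc1 with Nras (0.94 in the knockout and 0.53 in the AAV hearts) and with Spg11 (0.94 and 0.082). The genes were picked out of 9728 by r over these same hearts. High r within each experiment is therefore partly fixed and is not separate support. The 3 genes of Nppa and the 3 of Nppb did not coincide, while Nppa and Nppb themselves had an r of 0.73.

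The rest of the natriuretic peptide pathway was examined as a list of 14 genes, covering processing enzymes, receptors, degrading enzymes and cyclic GMP effectors. Nppc, the C-type peptide, and Ostn did not pass the filter on low values. Of the 12 tested, 0 passed the threshold in either experiment. In the knockout experiment 4 were higher and 8 lower, and the smallest p values belonged to Ide, Mme and Npr3. Npr3, the clearance receptor, had a log2 fold change of -0.15 ± 0.18 and Mme, the membrane protease neprilysin that degrades the peptides, -0.20 ± 0.18 (SE). Among the AAV hearts 7 were higher and 5 lower. Mme was at 13.4, 13.0 and 14.7 CPM in shCtrl and 16.1, 17.5 and 17.8 CPM in shAtf3 (log2 fold change 0.32 ± 0.08 SE, edgeR adjusted p = 0.162). Corin, the protease that activates pro-ANP, was at 160, 167 and 174 CPM against 187, 201 and 197 CPM (log2 fold change 0.22 ± 0.06 SE, edgeR adjusted p = 0.185). Both were higher in every heart labelled shAtf3, and Pcsk6, a protease that activates corin, stood at -0.22 ± 0.10 (SE, edgeR adjusted p = 0.420). The guanylyl cyclase receptors Npr1 and Npr2 had log2 fold changes of 0.02 and -0.01 in the knockout and 0.08 and -0.05 in the AAV experiment.

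Other genes of the fetal programme and their adult counterparts also gave 0 calls in either experiment. Of 9 further fetal genes tested, 6 were lower in each experiment. Hcn4, the pacemaker channel, had a log2 fold change of -0.95 ± 0.47 in the knockout and 0.47 ± 0.16 in the AAV experiment (SE, edgeR adjusted p = 0.533 and 0.282), and Dstn, which disassembles actin filaments, had -0.23 ± 0.08 in the knockout experiment (adjusted p = 0.400). Pkm stood at -0.11 ± 0.06 there (adjusted p = 0.578). Hk1 (-0.17 ± 0.06) and Slc2a1 (-0.28 ± 0.11), which serve glucose use, were lower in mean in the AAV experiment (edgeR adjusted p = 0.306 and 0.361). Of the 11 adult counterparts, 11 were lower in mean in the knockout experiment and 11 higher in the AAV experiment. Of the 7 cardiomyocyte markers, 5 are themselves among these 11, and the other pair, Actn2 and Mybpc3, stood at -0.16 and -0.15 in the knockout and 0.11 and -0.0451 in the AAV experiment. The 5 fibroblast and 4 macrophage markers were all higher in the former and all lower in the latter, beside 49.8% and 50.9% lower over all genes. The 4 endothelial markers were higher in both. The part of cell makeup in these directions was not tested. Tnnt2, cardiac troponin T, was 5133 to 6593 CPM in Atf3-/-FS6KD, below every heart labelled Atf3+/+FS6KD (log2 fold change -0.36 ± 0.08 SE, edgeR adjusted p = 0.277). Myl3 and Ckm followed at -0.14 ± 0.06 and -0.33 ± 0.16 (adjusted p = 0.476 and 0.522), and in the AAV experiment Slc2a4, Kcnd2 and Myl2 stood at 0.21 ± 0.06, 0.18 ± 0.08 and 0.13 ± 0.06 (adjusted p = 0.202, 0.392 and 0.398).

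Strain-responsive genes of the Z-disc and the transcription factors known to act on the members gave 0 calls as well. Of the Z-disc list, 4 of 14 genes tested were higher and 10 lower in the knockout experiment, and 11 of 15 higher and 4 lower in the AAV experiment. In the AAV experiment Ankrd23, a relative of Ankrd1 in the same titin-binding family, was at 655, 547 and 528 CPM in shCtrl and 436, 398 and 469 CPM in shAtf3, with no overlap (log2 fold change -0.41 ± 0.09 SE, edgeR adjusted p = 0.124). In the knockout experiment it stood at 0.44 ± 0.24 (adjusted p = 0.568). Trim55 and Bag3 stood at 0.15 ± 0.05 and 0.12 ± 0.07 in the AAV experiment, and Ttn at -0.24 ± 0.13 in the knockout experiment (edgeR adjusted p = 0.305, 0.512 and 0.566). The 22 transcription factors split into 8 higher and 14 lower in the knockout and 14 higher and 8 lower in the AAV experiment. Among them, Nfatc4 was higher in every heart labelled Atf3-/-FS6KD (log2 fold change 0.32 ± 0.10 SE, edgeR adjusted p = 0.392), with Mrtfa at 0.18 ± 0.09 and Mrtfb at -0.18 ± 0.10. For the AAV groups, Gata6, Nfatc3 and Mrtfb stood at 0.15 ± 0.06, 0.16 ± 0.06 and 0.21 ± 0.09 (edgeR adjusted p = 0.337, 0.358 and 0.363).

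**Figure D5:**
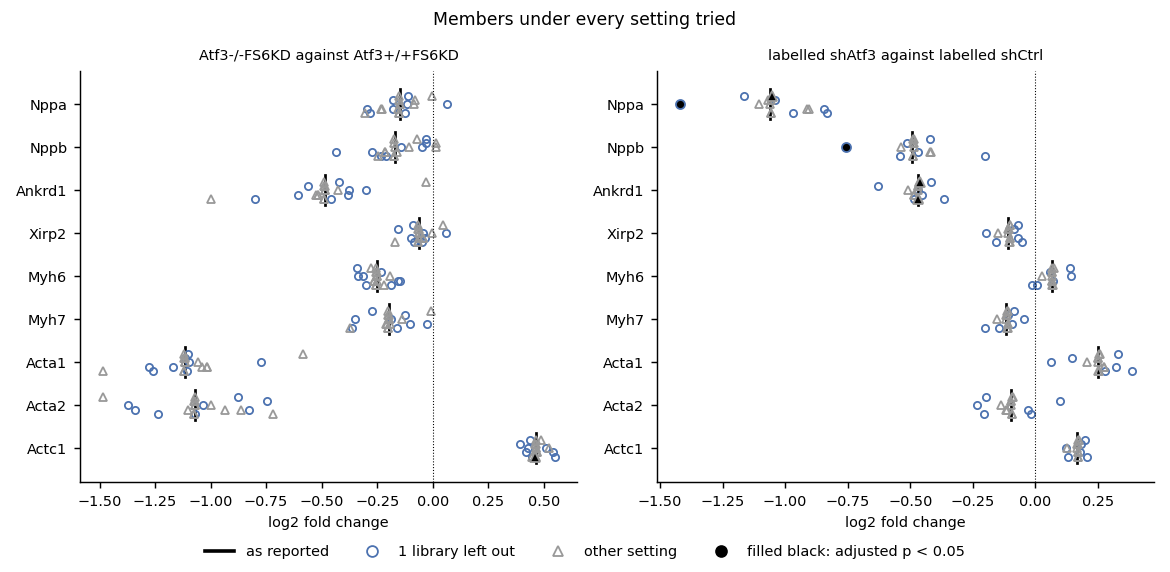
Log2 fold change (x axis) of each member in the knockout (left) and AAV (right) experiment as reported (black line), with 1 library left out (circles) and under other settings (triangles). Black symbols passed an adjusted p of 0.05. Nppa and Nppb pass when shCtrl replicate 3 is left out, and Acta1 in the knockout experiment runs from -1.48 to -0.59 without passing.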

How the data were processed

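Bulk RNA-seq of 14 hearts was used. For the knockout experiment the study states stranded mRNA libraries, alignment to GRCm38 (patch 6) and gene counts by featureCounts 2.0.0, the counter also named in the submitters' processing notes. The aligner, the use of strand and the processing of the AAV experiment are not given in the sources used here. The authors deposited estimated counts per gene, unnormalised and unpooled. Between 19.3% and 24.4% of values in a library were not whole, so they were rounded before each test. Of 42396 rows, 2379 are copy rows, and 40017 matched RefSeq symbols.

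Rows that exceeded 1 CPM in 1 or more of the libraries compared were tested with edgeR 4.0.16 in R 4.3.3 (two-sided quasi-likelihood F-test after TMM scaling, Benjamini-Hochberg over all such rows), on the 2 groups compared. The SE given with edgeR log2 fold changes is the absolute log2 fold change divided by the square root of the F statistic. DESeq2 1.42.0 and limma 3.58.1 were alternatives. The script was tested on simulated data. Exon lengths came from GENCODE M21 and promoters from RefSeq (GRCm38.p6).

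Members and lists were chosen with earlier results of these data known. The text names all members, Atf3, the genes of each list at an adjusted p below 0.05 or otherwise up to 3 with the smallest p, the 3 genes most like each member (prior count 2, mean log2 CPM of at least 3) and overlapping genes, and a gene that this rule would name is not reported here. No pair of replicates agreed within sampling noise. All sample columns were used (0 were left out).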

Additional observations from a re-analysis of the deposited data

Results flagged for a closer look

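In groups of 4 hearts, 30 sets of member values and shares were examined by Dixon's test at the 95% level, which flags about 1 in 20 sets by chance, and 6 were flagged. The sets are not independent of each other.

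Of these 6, 5 concern the library labelled Atf3-/-FS6KD replicate 3, which lay far from the other 3 of its group. It had the highest Acta1 of its group at 1179 CPM, the lowest Actc1 at 7863 CPM, and with them the highest Acta1 share at 13.6%. Its copy shares were the lowest of the group, at 47.2% for Nppa_1 and 31.6% for Nppb_1. Without this library the knockout log2 fold changes were -1.17 for Acta1 and 0.54 for Actc1 (edgeR adjusted p = 0.460 and 0.262). The remaining flag is Ankrd1 in Atf3-/-FS6KD replicate 2, which stood at 3845 CPM while the other 3 were at 1865 to 2106 CPM.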

How the results depend on the processing

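Of the members, DESeq2 called 1 in each experiment (Actc1 and Ankrd1, with 208 and 308 genes in all). With no filter on low counts, 2 were called in the AAV experiment (Nppa, adjusted p = 0.0238, and Ankrd1, adjusted p = 0.0082) among 304 genes, and 2 genes but no member in the knockout experiment. Only replicates 3 and 4 gave 8 genes in the knockout experiment, and all 14 libraries in 1 fit gave 31 there and 1 in the AAV experiment. The difference between experiments had 205 genes under library size alone, where the median over all genes was 0.11 on the log2 scale, and 48 under limma-trend.

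With 1 library left out, genes called ranged from 0 to 15 (knockout), 1 to 285 (AAV) and 0 to 168 (difference), and members called from 0 to 2 (AAV, both without shCtrl replicate 3) and 0 in the others. Deviations from the group mean were correlated between the groups. For hearts of the same replicate number r was 0.0064 to 0.15 in the knockout and -0.00037 to 0.15 in the AAV experiment. For different numbers r was -0.24 to 0.19 and -0.18 to 0.089, so the ranges overlapped. Whether replicate numbers mark a pairing is not stated in the labels. The replicate block gave 0 and 20 genes and no member.

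Signs turned as follows. Nppb in the knockout experiment was 0.0167 with Nppb_1 added, and 0.0167 with Nppa_1 added too, an alternative chosen after seeing the data. Xirp2 was 0.0463, and Nppa with its copy 0.11, in replicates 1 and 2 alone, and Nppb with its copy was -0.15 in replicates 3 and 4 alone. In the difference between experiments, library size alone gave 0.085 for Ankrd1 and 0.0161 for Myh7. With 1 library left out, ranges that crossed 0 were, in the knockout experiment, -0.29 to 0.0646 for Nppa, -0.23 to 0.13 and -0.14 to 0.16 for Nppa and Nppb with their copies and -0.16 to 0.0618 for Xirp2. In the AAV experiment they were -0.0135 to 0.14 for Myh6 and -0.23 to 0.10 for Acta2. In the difference they were -0.33 to 0.17 for Ankrd1, -0.0501 to 0.17 for Xirp2 and -0.25 to 0.0862 for Myh7. The Myh7 share differed by -0.42 to 0.54 percentage points in the knockout experiment and -0.63 to -0.42 in the AAV experiment, where the share of counts gave -0.63, and the Acta1 share by -17.8 to -11.9 and -0.67 to 2.15. The causes were not tested.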
